A study of Rattus norvegicus with 8 samples.

Results

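The late response of rat adipose-derived mesenchymal stem cells (ASCs) to lipopolysaccharide (LPS) was set against their early response, gene by gene. ASCs are fibroblast-like stromal cells grown out of fat, here from the inguinal and interscapular depots of 8-week rats. They came from naive rats, without a graft, of the Lewis/Jms strain (LEW) and the Piebald Virol Glaxo strain (PVG). In the study's transplant models, LEW recipients acutely rejected livers of DA donor rats. PVG recipients also had an early rejection reaction to DA livers but overcame it and became spontaneously tolerant. The cells of 3 rats per strain were each divided over PBS control and LPS at 1 µg/ml, harvested at 24 h or at 48 h, and the RNA of the 3 rats was pooled on 1 Illumina bead array per strain and condition. The 8 arrays of the series, all used here, thus form 4 groups of 2 arrays, 1 LEW and 1 PVG: control 24 h, LPS 24 h, control 48 h and LPS 48 h. Of 22523 probes, the 10414 with a detection p-value under 0.05 on at least 2 arrays were kept, and these covered 7454 named genes. The LPS change of a probe is the log2 signal with LPS minus that of the control of the same strain and time, with signals scaled to a common 75th percentile. The LPS by time difference, the quantity reported throughout, is the LPS change at 48 h minus that at 24 h, so that a positive value means a change further upward at 48 h. Each strain gave 1 value of it, and errors are standard errors of a limma fit in which the strains were the 2 repeats. The error of that fit also takes in strain differences in the LPS effect and in the time effect. It can thus exceed the spread of the 2 values, as for the gene Slc16a3 (0.90 in LEW, 0.87 in PVG, error 0.48). The p-values therefore measure the spread between the pooled cells of the strains and not the spread between rats, and strain and pool cannot be told apart.

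LPS, the endotoxin of gram-negative bacteria, is carried by LPS-binding protein and CD14 to Toll-like receptor 4, whose adaptor MyD88 starts the signalling that frees the transcription factor NF-kB from its inhibitors. The first genes to respond encode chemokines, cytokines and the inhibitors that end the signal. Cytokines such as interleukin 6 made in this first phase then act on the cells themselves through other transcription factors, and acute-phase and complement genes are the known targets of that later phase.

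On each array 8947 to 9509 probes were detected, 39.7% to 42.2% of all. Of 18 MSC and fibroblast markers on the array, 16 were detected in every sample, with summed signals between 95614 and 113826. Of 21 macrophage and leukocyte markers, which would point to other LPS-sensing cells, 15 were undetected on every array, among them Ptprc and Cd74, and none was detected on all 8. Their summed signal lay between 1418 and 1607 over the 8 arrays. The 14 reference genes had a median LPS by time difference of 0.14, among them Pgk1, a glycolytic gene of the late class. Of 12 endothelial markers 6, Cdh5 among them, were undetected on every array, and 3, Tie1, Cldn5 and Egfl7, were detected on all 8 at signals of 79.9 to 134. Of 9 adipocyte markers 3, Adipoq among them, were undetected on every array, and none was detected on all 8. Of 8 mesothelial markers, Msln (319 to 573) and Krt7 (101 to 942) were detected on all 8. The probe for Tlr4 itself was detected on 0 of 8 arrays (signals of 70.2 to 79.7), so that this array gave no level for the receptor. Cd14 gave an LPS change of 0.68 ± 0.16 at 24 h and 0.63 ± 0.16 at 48 h (log2, adjusted p = 0.127 and 0.098), and Myd88 gave 0.00 ± 0.17 and 0.07 ± 0.17.

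At 24 h LPS raised 26 probes (0.25% of those tested) and lowered 3 (0.0288%) at a Benjamini-Hochberg adjusted p under 0.05 in limma. At 48 h it raised 159 (1.53%) and lowered 86 (0.826%). Both counts rested on strain being a term of the fit, as without it 1 probe passed at 24 h and 2 at 48 h. Quantile normalization called 25 higher and 0 lower at 24 h, and scaling to a common median 8 higher and 0 lower. Of the 29 probes called at 24 h, 28 were also called in the same direction at 48 h. The difference between the times themselves was not resolved for any single probe. After adjustment over all kept probes 0 of them (0%) passed, and the smallest adjusted p was 0.216, for Lbp. At an unadjusted p under 0.05 limma gave 526 probes. Of these, 334 had a higher LPS change at 48 h (3.21%) and 192 a lower one (1.84%). A 2-way analysis of variance of LPS and duration was also run, with strain as a block and without limma's pooling of variances. It gave 0 probes after adjustment and 565 before it. The study names a 2-way analysis of variance, but its exact model was not rerun. When strain was also allowed to alter the LPS and the time effect, a fit that takes the strains' own offsets out of the error, 26 probes passed as higher at 48 h (0.25%) and 1 as lower (0.0096%). That fit left 1 residual degree of freedom, so its errors came mostly from the spread over all probes. Its calls thus followed the mean size of a difference more than the match between the strains. Without the PVG array of LPS 48 h 31 probes passed, and without the LEW array of LPS 48 h 2 did. In simulated data with these 8 arrays, 50 probes each were changed by 0.5, 1, 2 or 3 (log2). No other LPS or time effect was present there, and the noise was independent between arrays. The main fit recovered 2% of differences of 0.5, 40% of 1 and 92% of 2, with 4 false calls. Those shares hold for that setting and number of true changes, and were not measured for the real data.

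The probes were sorted by size alone. A response was a change of at least 1.5-fold the same way in both strains, with the brighter group detected on both of its arrays, and no response was a change under 1.5-fold in both. Sustained responses were present at both times, fading ones at 24 h only and late ones at 48 h only, and the rest, which responded at 1 time and lay across the threshold at the other, were called mixed. The sort placed 70 probes as sustained and higher (0.672%) and 8 as sustained and lower (0.0768%). It placed 36 as late and higher (0.346%) and 23 as late and lower (0.221%), and 1 as fading and higher (0.0096%) and 6 as fading and lower (0.0576%). The balance of 59 late to 7 fading probes depended on the fold, as a fold of 1.3 gave 108 late and 93 fading ones. A further 66 probes were mixed and higher (0.634%) and 42 mixed and lower (0.403%). These classes were made from the same values as the LPS by time difference and are a description. The borders were soft, since the late class reached a 24 h change of 0.58 (Eno2, the neuronal enolase) and the nearest probe left out of it had 0.59, while the fading class reached 0.56 at 48 h and the nearest probe left out, that of Id2, had 0.59.

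**Figure D1:**
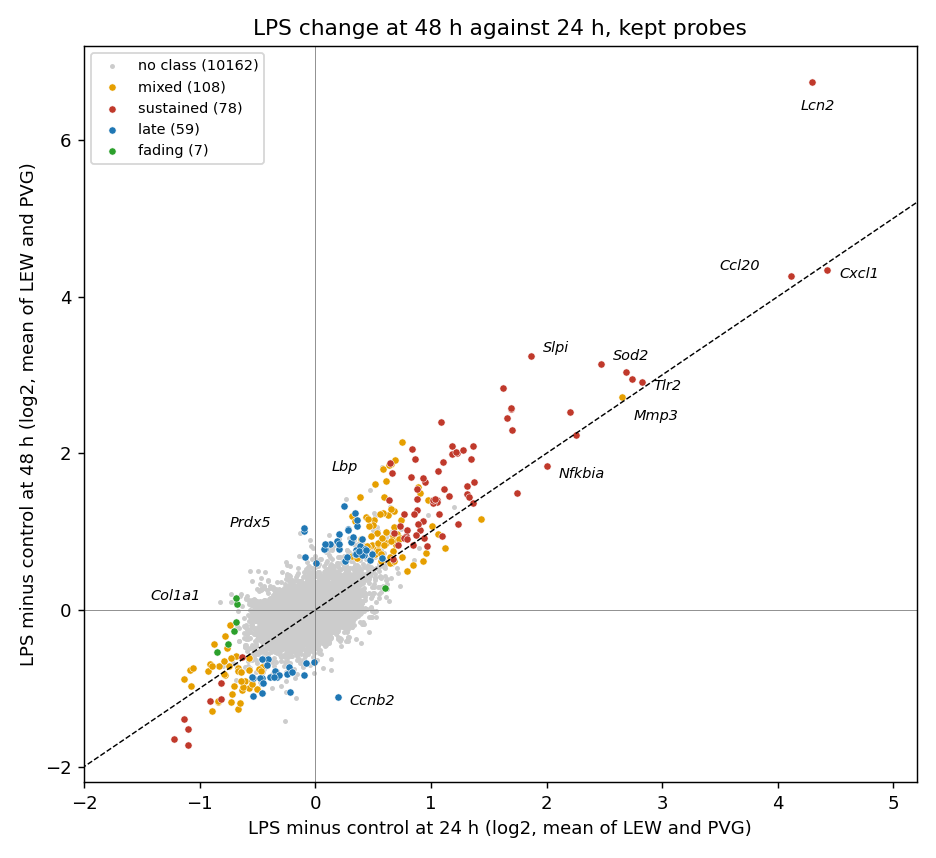
LPS change (log2, mean of LEW and PVG) at 24 h on the x axis and at 48 h on the y axis for the 10414 kept probes, coloured by class, with some genes named and a dashed line where both times are equal. The 70 sustained and higher probes had a median change of 1.08 at 24 h and of 1.56 at 48 h, and 49 of them had the larger change at 48 h in both strains.

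Of the NF-kB pathway, the receptor gene Tlr2 and the inhibitor genes Nfkbia, Tnip1 and Irak3 were sustained, with LPS by time differences close to 0. Nfkbia, which encodes the inhibitor IkB-alpha that NF-kB induces to end its own activity, had control signals at 24 h of 280 in LEW and 332 in PVG, and LPS signals of 1230 and 1209. At 48 h its controls were at 336 and 386 and its LPS arrays at 1524 and 1085. All 4 LPS signals thus stood above all 4 control signals, with rises of 4.40-fold in LEW and 3.64-fold in PVG at 24 h (adjusted p = 0.00185) and of 4.53-fold and 2.81-fold at 48 h (adjusted p = 0.00136), and an LPS by time difference of -0.17 ± 0.24 (95% interval -0.72 to 0.39). Tlr2, the receptor for bacterial lipoproteins, went from 103 in LEW and 82.9 in PVG to 722 and 594 at 24 h, and from 93.4 and 85.4 to 725 and 617 at 48 h. Its rises of 7.08-fold and 7.49-fold differed by 0.08 ± 0.15 (interval -0.26 to 0.42). The control of Tlr2 was detected on 1 of 2 arrays at 48 h, which makes that fold depend in part on the background. Tnip1, whose product helps A20 to hold back NF-kB signalling, had control signals of 1700 and 1801 at 24 h and of 1642 and 1834 at 48 h. With LPS it stood at 4103 and 4934 at 24 h and at 3947 and 5051 at 48 h, a rise of 2.57-fold at each time and a difference of 0.00 ± 0.16 (interval -0.36 to 0.36). Irak3, a kinase-dead brake on MyD88 signalling, rose 2.52-fold and 2.71-fold and differed by 0.11 ± 0.20. Not all genes of the pathway had this course. Rela, which encodes an NF-kB subunit, was in no class and passed for LPS at neither time. Its LPS change was 0.36 ± 0.12 at 24 h and -0.02 ± 0.12 at 48 h. The difference was -0.40 in LEW and -0.37 in PVG, with a mean of -0.39 ± 0.17. The intervals of Tlr2 and Tnip1 leave room for a late gain or loss of up to 0.42, and that of Nfkbia for a loss of up to 0.72.

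Of 16 chemokines tested, which attract neutrophils and other leukocytes, 6 were sustained and higher and 2 were mixed. Cxcl1 had control signals between 81.1 and 124 on its 4 control arrays and LPS signals of 2473 in LEW and 1808 in PVG at 24 h, then 3863 and 1068 at 48 h. It rose 21.6-fold and 20.3-fold, while its LPS by time difference was 0.53 in LEW and -0.71 in PVG, with a mean of -0.09 ± 0.42 (interval -1.05 to 0.87). The control of Cxcl1 was detected on 1 of 2 arrays at 48 h, so that fold also depends in part on the background. Ccl20, a ligand of CCR6, went from 345 and 92.3 to 4381 and 2186 at 24 h and from 942 and 105 to 10317 and 3529 at 48 h. Its LPS signals were above every control signal at both times, 17.3-fold and 19.2-fold over the controls. Ccl2, which attracts monocytes, gave 4.61-fold at 24 h (adjusted p = 0.0851) and rose 5.76-fold at 48 h (adjusted p = 0.0279). Of the 16 chemokines, 2 rose at 24 h and 7 at 48 h, against 0.25% and 1.53% of all kept probes, and none fell. Their median LPS by time difference was -0.09 against -0.02 over all genes. The difference was positive in both strains for 5 of the 16 (31.25%, against 27.4% of all genes) and negative in both for 7 (43.75%, against 30.8%). Of 20 genes of NF-kB subunits, feedback inhibitors and Toll-like receptors, 4 rose at 24 h and 6 at 48 h, with a median difference of 0.01. Among all kept probes 0.25% and 1.53% rose. By class, 5 of the 20 were sustained and higher and 3 mixed and higher. The difference was positive in both strains for 8 of the 20 (40%, against 27.4% of all genes) and negative in both for 3 (15%, against 30.8%). When strain could alter the LPS and time effects, 1 passed as higher, against 0.25% of all kept probes. Ptgs2, the inducible cyclooxygenase, gave 2.59-fold at 24 h (adjusted p = 0.0569) and rose 3.11-fold at 48 h, and Mt1, a metal-binding metallothionein, rose 6.46-fold and 8.21-fold.

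Promoters of sustained genes are shown here for the letters of the kappa-B motif, to which NF-kB binds, because the sort did not use sequence. Windows of 250 bases before to 50 after the gene start were taken from RefSeq (build GRCr8) and searched on both strands for the kappa-B consensus. A match was present in 14 of the 49 sustained and higher genes, of 65 in all, that had a window (28.6%), against 7.60% of 27457 windows and 9.70% of the 6239 windows of genes with a kept probe. Of 27 late and higher genes with a window 3 had a match (11.1%), of 20 late and lower genes 3 (15%), of 39 mixed and higher genes 7 (17.9%) and of 30 mixed and lower genes 0. Capitals mark the matched letters in 5 such windows, all on the minus strand, of Nfkbia (chr6:78597023-78597322), Cxcl1 (chr14:17479272-17479571), Tlr2 (chr2:171504508-171504807), Tnip1 (chr10:39584912-39585211) and Lcn2 (chr3:36081731-36082030), each written 5′ to 3′ in the direction of its gene.
Nfkbia: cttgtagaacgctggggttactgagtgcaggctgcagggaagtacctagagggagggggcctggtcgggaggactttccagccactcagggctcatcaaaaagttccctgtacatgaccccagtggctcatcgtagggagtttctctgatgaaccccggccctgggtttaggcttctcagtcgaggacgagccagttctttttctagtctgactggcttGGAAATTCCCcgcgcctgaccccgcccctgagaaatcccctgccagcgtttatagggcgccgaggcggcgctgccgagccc
Cxcl1: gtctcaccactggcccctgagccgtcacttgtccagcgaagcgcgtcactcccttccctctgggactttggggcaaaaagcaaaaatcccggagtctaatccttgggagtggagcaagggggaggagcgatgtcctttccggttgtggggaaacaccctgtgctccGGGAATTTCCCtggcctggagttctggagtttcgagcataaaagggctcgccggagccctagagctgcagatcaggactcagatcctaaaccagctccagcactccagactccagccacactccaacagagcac
Tlr2: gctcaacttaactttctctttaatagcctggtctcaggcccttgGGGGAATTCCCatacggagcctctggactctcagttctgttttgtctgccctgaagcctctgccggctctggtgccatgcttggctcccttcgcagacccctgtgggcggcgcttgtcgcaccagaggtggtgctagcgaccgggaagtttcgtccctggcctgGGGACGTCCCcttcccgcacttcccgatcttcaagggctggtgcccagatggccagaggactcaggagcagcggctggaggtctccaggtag
Tnip1: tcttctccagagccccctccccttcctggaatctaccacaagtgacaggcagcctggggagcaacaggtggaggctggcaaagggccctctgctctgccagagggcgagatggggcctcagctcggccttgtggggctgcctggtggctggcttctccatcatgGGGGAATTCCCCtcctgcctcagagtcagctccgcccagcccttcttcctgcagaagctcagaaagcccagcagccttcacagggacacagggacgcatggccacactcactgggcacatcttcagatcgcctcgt
Lcn2: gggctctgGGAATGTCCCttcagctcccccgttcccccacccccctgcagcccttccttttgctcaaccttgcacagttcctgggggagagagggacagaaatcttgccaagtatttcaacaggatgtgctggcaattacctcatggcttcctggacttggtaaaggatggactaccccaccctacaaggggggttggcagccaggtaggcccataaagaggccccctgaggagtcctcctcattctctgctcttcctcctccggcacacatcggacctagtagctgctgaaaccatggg
The match lay 31 to 22 bases before the start of Nfkbia, 84 to 74 before that of Cxcl1, 86 to 75 before that of Tnip1 and 242 to 233 before that of Lcn2, and Tlr2 had one at 206 to 196 and another at 42 to 33. The 14 sustained genes with a match had a median LPS change of 1.68 at 24 h and 1.93 at 48 h (log2). The 35 without one had 0.97 and 1.40, and the median LPS by time differences were 0.19 with a match and 0.35 without. Of the other motifs searched, the interferon-stimulated response element, searched as GAAA, any 2 bases and GAAA, matched 3 sustained and higher genes (6.12%, against 2.61% of the windows with a kept probe) and the AP-1 motif, TGANTCA, matched 4 (8.16%, against 4.98%). A match is a description of these letters and not a measured binding site.

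**Figure D2:**
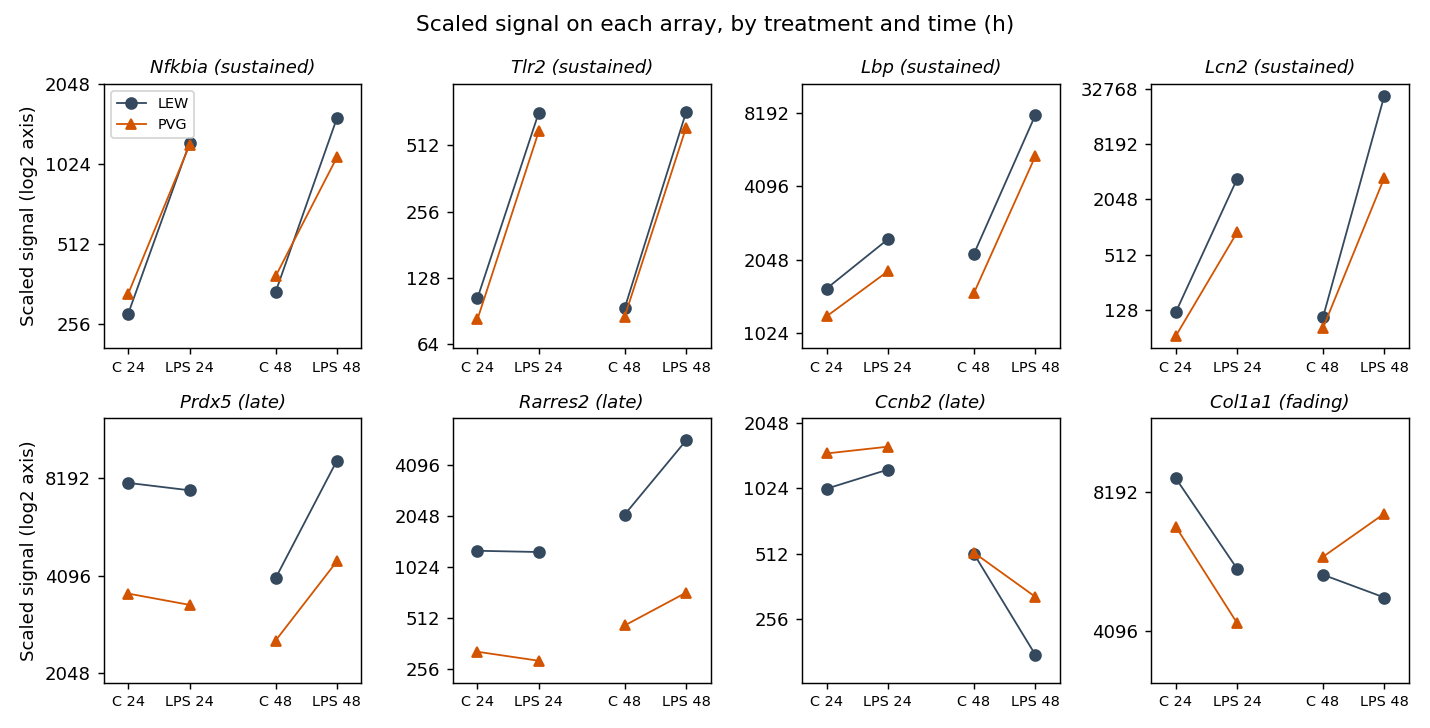
Scaled signals (log2 axis) of 8 genes on the 8 arrays, by group on the x axis, with circles for LEW, triangles for PVG and lines joining the control (C) and LPS array of a strain and time. Nfkbia and Tlr2 reached similar signals at both times, Lbp and Lcn2 higher ones with LPS at 48 h, Prdx5 and Rarres2 separated from the controls at 48 h, and Ccnb2 and Col1a1 show the late and lower and the fading and lower pattern.

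Acute-phase and complement genes had larger LPS changes at 48 h than at 24 h, although no single difference passed the adjusted test. Lbp, which encodes the plasma protein that hands LPS to CD14, had control signals of 1560 in LEW and 1200 in PVG at 24 h and LPS signals of 2487 and 1838. At 48 h the controls were at 2163 and 1493 and the LPS arrays at 8017 and 5437, above every other array. The change of 1.56-fold at 24 h (adjusted p = 0.0629) and the rise of 3.67-fold at 48 h (adjusted p = 0.00019) gave an LPS by time difference of 1.22 in LEW and 1.25 in PVG, with a mean of 1.23 ± 0.15 (interval 0.89 to 1.57, unadjusted p = 2.07e-05, adjusted p = 0.216). The adjusted p was 0.00692 when strain could alter the LPS and time effects, and 0.0395 when all 22523 probes were tested without a detection filter. Lcn2, which encodes the iron-trapping lipocalin 2, had control signals between 66.2 and 120 on its 4 control arrays. With LPS it reached 3427 in LEW and 897 in PVG at 24 h and 27792 and 3545 at 48 h, so that its 4 LPS signals lay above all controls and each strain was higher at the later time. The rises were 19.6-fold and 107-fold, with differences of 3.20 and 1.69 and a mean of 2.44 ± 0.69 (interval 0.88 to 4.01, adjusted p = 0.867, and 0.00692 with the strain terms). The control of Lcn2 was detected on 1 of 2 arrays at each time, which makes its folds depend in part on the background.

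Hp, the gene of the haemoglobin-binding protein haptoglobin, was undetected in all 4 controls (65.8 to 72.9). Its LPS signals were 147 in LEW and 84.0 in PVG at 24 h and 312 and 209 at 48 h, so that Hp was at least 1.42-fold higher at 24 h (adjusted p = 0.156) and at least 2.96-fold higher at 48 h (adjusted p = 0.00133), with a measured difference of 1.23 ± 0.25 that is not exact, since it is set against background. Serping1, the inhibitor of the complement proteases C1r and C1s, went from 228 and 236 to 356 and 380 at 24 h and from 423 and 276 to 1520 and 866 at 48 h, a difference of 1.08 ± 0.30. C1s itself, with LPS signals of 1143 and 319 at 24 h and of 3982 and 842 at 48 h, differed by 1.21 ± 0.35. Both rose at 48 h (adjusted p = 0.006 for Serping1 and 0.00802 for C1s), and C1s was lower in PVG than in LEW on every matched pair of arrays. Of the 20 acute-phase, metal-binding and complement genes tested, 4 rose at 24 h, 10 rose at 48 h and none fell. At an unadjusted p under 0.05 in limma, 7 had a higher LPS change at 48 h and 0 a lower one, against 3.21% and 1.84% of all kept probes. With the strain terms 5 passed as higher, against 0.25% of all kept probes. The difference was positive in both strains for 11 of the 20 (55.0%, against 27.4% of all genes), with a median of 0.35. The size was uneven between the strains, with a median of 0.55 in LEW and 0.18 in PVG. Sod2, the mitochondrial superoxide dismutase and an NF-kB target, rose 5.55-fold and 8.79-fold and differed by 0.66 ± 0.27. Cebpb, a transcription factor of acute-phase genes, gave 1.84-fold at 24 h (adjusted p = 0.164), rose 2.41-fold at 48 h and differed by 0.39 ± 0.33. Il6 had LPS signals of 136 and 107 at 24 h and of 223 and 104 at 48 h against controls of 66.5 to 85.3, and did not pass at either time (adjusted p = 0.309 and 0.0999).

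Over the 70 sustained and higher probes the median LPS change was 2.11-fold at 24 h and 2.95-fold at 48 h. The difference between the times was positive in both strains for 49 of them, negative in both for 3 and of opposite sign for 18, while over all kept probes it was positive in both for 26.1% and negative in both for 32.5%. The 8 sustained and lower probes had a median of -1.01 at 24 h and -1.28 at 48 h, and all 8 fell at 48 h by the test, while 0 passed at 24 h. Their LPS by time difference was negative in both strains for 4, positive in both for 1 and of opposite sign for 3. Among them were Ogn, the matrix proteoglycan osteoglycin (-1.11 ± 0.20 and -1.52 ± 0.20), Fez1, an adaptor of kinesin transport (-1.10 ± 0.24 and -1.73 ± 0.24), and Aoc3, an amine oxidase of the adipocyte and smooth muscle surface (-1.14 ± 0.22 and -1.40 ± 0.22).

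Several genes of secreted proteins also had positive differences in both strains. As a list, the 20 angiogenic and insulin-like growth factors did not stand apart, with a median difference of 0.05 and 6 of 20 positive in both strains (30%, against 27.4% of all genes). Enpp2, which encodes autotaxin, the enzyme that makes lysophosphatidic acid, had control signals of 78.0 in LEW and 74.0 in PVG at 24 h, both undetected, and LPS signals of 110 and 123. At 48 h its controls were at 91.8 and 94.6 and its LPS arrays at 290 and 293, so that the 2 late LPS arrays stood clear of the other 6. It was at least 1.48-fold higher at 24 h (adjusted p = 0.0683), rose 3.13-fold at 48 h and differed by 1.03 ± 0.15 (interval 0.69 to 1.38, adjusted p = 0.478), a value that is not exact, since its 24 h controls were at background. Fmod, the collagen-binding proteoglycan fibromodulin, had LPS signals of 163 and 187 at 24 h and of 451 and 315 at 48 h, against 90.5 to 130 in the controls, and differed by 1.21 ± 0.30. Lum, the related lumican, gave 1.82-fold at 24 h (adjusted p = 0.0851), rose 3.79-fold at 48 h and differed by 1.06 ± 0.25, and Thbs2, an antiangiogenic thrombospondin, by 0.77 ± 0.30. Igfbp3, the main carrier of insulin-like growth factors, differed by 1.39 ± 0.48 and Ccl11, the eosinophil attractant eotaxin, by 1.21 ± 0.31. Cxcl12, the ligand of CXCR4 that stromal cells secrete, had LPS signals of 6756 and 4539 at 24 h and of 9798 and 6549 at 48 h over controls of 3251 and 3679 and of 3395 and 3255. It rose 2.41-fold at 48 h (adjusted p = 0.0113), against 1.60-fold at 24 h (adjusted p = 0.181), and differed by 0.59 ± 0.26.

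The 27 probes that passed with the strain terms included 21 named genes, and 18 of the 27 had been called for LPS at 48 h and not at 24 h. Of the 21 named genes, Lcn2, Lbp, Hp, Serping1 and C1s were of the acute phase and complement. Fmod, Lum, Igfbp3, Ccl11, Enpp2, Rarres2 and Wfdc18 were of the matrix and secreted proteins. Adora2a, Bst1, Cd302 and Slc16a3 belong to the cell surface, and Prdx5, Sphk1, Cand1, Ccnb2 and Tgm1 act inside the cell. Slc16a3, the lactate exporter, had LPS by time differences of 0.90 in LEW and 0.87 in PVG, and Adora2a, an adenosine receptor, of 1.16 and 0.66. Sphk1, which makes sphingosine 1-phosphate, had 1.60 and 0.64, and Wfdc18 had 1.59 and 0.83 with its PVG control undetected at both times.

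Among the genes of the late and higher class were some of redox defence, of energy metabolism and of secreted proteins. Prdx5, a peroxiredoxin that removes peroxides, had signals of 7928 in LEW and 3609 in PVG in the 24 h controls and of 7521 and 3331 with LPS. At 48 h the controls were at 4024 and 2584 and the LPS arrays at 9288 and 4541. LPS thus left it within 0.12 of the control in each strain at 24 h and raised it 2.01-fold at 48 h (adjusted p = 0.00941), and the difference was 1.11 ± 0.20 (interval 0.65 to 1.56, adjusted p = 0.746, and 0.0149 with the strain terms). The control signal of Prdx5 was itself lower at 48 h than at 24 h in both strains. Rarres2, which encodes the chemoattractant and adipokine chemerin, had controls of 1272 and 323 and LPS signals of 1250 and 286 at 24 h. At 48 h it stood at 2080 and 461 in the controls and at 5683 and 720 with LPS, a rise of 2.07-fold (adjusted p = 0.0436) and a difference of 1.15 ± 0.30 that was larger in LEW (1.48) than in PVG (0.82). Here the level with LPS went up between the times and the LEW signals stood above the PVG signals on every matched pair of arrays.

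Bst1, a surface ADP-ribosyl cyclase that stromal cells use to support B cell growth, had LPS signals of 632 and 404 at 24 h and of 1131 and 667 at 48 h over controls of 459 and 345 and of 474 and 284. It differed by 0.90 ± 0.17 and rose 2.37-fold at 48 h (adjusted p = 0.00163). Pygl, glycogen phosphorylase, had LPS signals of 1266 and 747 at 24 h and of 1591 and 1012 at 48 h, over controls that were lower at 48 h (723 and 452) than at 24 h (957 and 600), and differed by 0.79 ± 0.14. Cd302, a C-type lectin receptor, differed by 1.08 ± 0.43, and Zfp36l1, an RNA-binding protein that speeds the decay of cytokine messages, by 0.77 ± 0.25, and neither passed for LPS at 48 h (adjusted p = 0.065 and 0.103). Timp1, the inhibitor of matrix metalloproteinases, Hmox1, haem oxygenase, Pla2g12a, a secreted phospholipase, Casp6, an executioner caspase, and the glycolytic enzyme gene Pgk1 all rose at 48 h by 1.72-fold to 1.96-fold. Their 24 h folds lay between 1.09 and 1.24, and their differences between 0.56 ± 0.16 for Hmox1 and 0.76 ± 0.19 for Pgk1.

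Of the list of 32 glycolytic and hypoxia-inducible genes, 12 rose at 48 h, against 1.53% of all kept probes, and 0 at 24 h. None of them fell. The list was not mainly late, as 6 of its genes were sustained and higher and 2 late and higher. Its median LPS change was already 0.38 at 24 h, against 0.62 at 48 h. In both strains the LPS by time difference was positive for 18 of the 32 (56.2%, against 27.4% of all genes), with a median of 0.21. At an unadjusted p under 0.05 in limma, 4 were higher at 48 h and 0 lower, against 3.21% and 1.84% of all kept probes. Adm, the vasodilator adrenomedullin, gave 1.51-fold at 24 h, rose 2.71-fold at 48 h and differed by 0.85 ± 0.22. Hif1a, the oxygen-sensing transcription factor, rose 2.29-fold at 48 h, with a difference of 1.54 in LEW and of 0.21 in PVG. Of 28 NRF2 and antioxidant genes, 1 rose at 24 h, against 0.25% of all kept probes. At 48 h 3 of the 28 rose and 1 fell, against 1.53% and 0.826%. By class, 2 of them were late and higher and 1 late and lower. The difference was positive in both strains for 12 of the 28 (42.9%, against 27.4% of all genes) and negative in both for 6 (21.4%, against 30.8%). At an unadjusted p under 0.05 in limma, 6 were higher and 1 lower at 48 h, against 3.21% and 1.84% of all kept probes. The median difference was 0.07. Nfe2l2, which encodes NRF2, had 1.08 in LEW and 0.55 in PVG and did not pass for LPS at either time (adjusted p = 0.198 and 0.345), and Prdx6, a further peroxiredoxin, differed by 0.68 ± 0.19. Nqo1 went the other way, with differences of -0.54 in LEW and -0.42 in PVG. Its LPS change was -0.47 ± 0.20 at 24 h and -0.95 ± 0.20 at 48 h (limma adjusted p = 0.396 and 0.0513).

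Ccnb2, which encodes the mitotic cyclin B2, led the late and lower class, with signals of 1021 in LEW and 1484 in PVG in the 24 h controls and of 1250 and 1594 with LPS. At 48 h the controls had come down to 512 and 518 and the LPS arrays to 176 and 325, so that the LPS arrays were the lowest of the 8. It fell at 48 h by 1.11 ± 0.18 on the log2 scale (adjusted p = 0.0171), with an LPS by time difference of -1.84 in LEW and -0.78 in PVG and a mean of -1.31 ± 0.25 (interval -1.89 to -0.73, adjusted p = 0.746, and 0.0246 with the strain terms). Tpx2, a spindle assembly factor, had controls of 388 and 584 at 24 h and of 186 and 269 at 48 h, and LPS signals of 419 and 647 and then of 86.5 and 198. It fell at 48 h (adjusted p = 0.0497) with a difference of -0.90 ± 0.23, and Prc1, which bundles the microtubules of the spindle midzone, fell at 48 h (adjusted p = 0.033) with -0.55 ± 0.21. Cdc20, the activator of the anaphase-promoting complex, had -0.96 in LEW and -0.58 in PVG and did not pass for LPS at 48 h (adjusted p = 0.136).

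Of 34 mitosis and spindle genes, 4 fell at 48 h, against 0.826% of all kept probes, and 0 rose. None of the 34 passed in either direction at 24 h. For 19 of the 34 the LPS by time difference was negative in both strains (55.9%, against 30.8% of all genes), and its median was -0.39 in LEW and -0.02 in PVG. Of 34 DNA replication genes 0 passed at either time, and 1 was lower at 48 h at an unadjusted p under 0.05 in limma. Both counts are near the shares among all kept probes. The difference was negative in both strains for 20 of these genes (58.8%, against 30.8% of all genes), with a median of -0.10. Of the mitosis and spindle list only Ccnb2 and Kif23, a mitotic kinesin with a difference of -0.16 ± 0.14, were in the late and lower class. Tpx2, Prc1 and Cdc20 were in no class. Gzmb, granzyme B, from the leukocyte marker list, was also in the late and lower class. It was detected on 5 of 8 arrays and on neither LPS 48 h array, and was at least 1.52-fold lower there (adjusted p = 0.00787). The other leading members were genes of other roles. Anxa5, the phosphatidylserine-binding annexin, had controls of 1390 and 1771 and LPS signals of 1288 and 1415 at 24 h, then controls of 1688 and 1830 and LPS signals of 633 and 1133 at 48 h. It fell by 1.05 ± 0.17 at 48 h (adjusted p = 0.0171), with a difference of -0.84 ± 0.24. Aig1, an androgen-induced membrane hydrolase, gave -0.73 ± 0.18, Plac9, a small secreted protein, -0.65 ± 0.16, Rpia, an enzyme of the pentose phosphate pathway, -0.60 ± 0.19, Pik3ip1, an inhibitor of phosphoinositide 3-kinase, -0.59 ± 0.19, and Tns1, a focal adhesion protein, -0.59 ± 0.21. The first 4 of these fell at 48 h, and Tns1 did not pass (adjusted p = 0.0527). Thy1, the CD90 surface marker of MSCs, was in no class, since its 48 h change of -0.56 ± 0.11 (adjusted p = 0.0353) was under 1.5-fold in LEW. Its difference was -0.60 ± 0.15, from LPS signals of 1898 and 1385 at 24 h and of 1816 and 1274 at 48 h over controls of 1783 and 1386 and of 2499 and 2006.

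**Figure D3:**
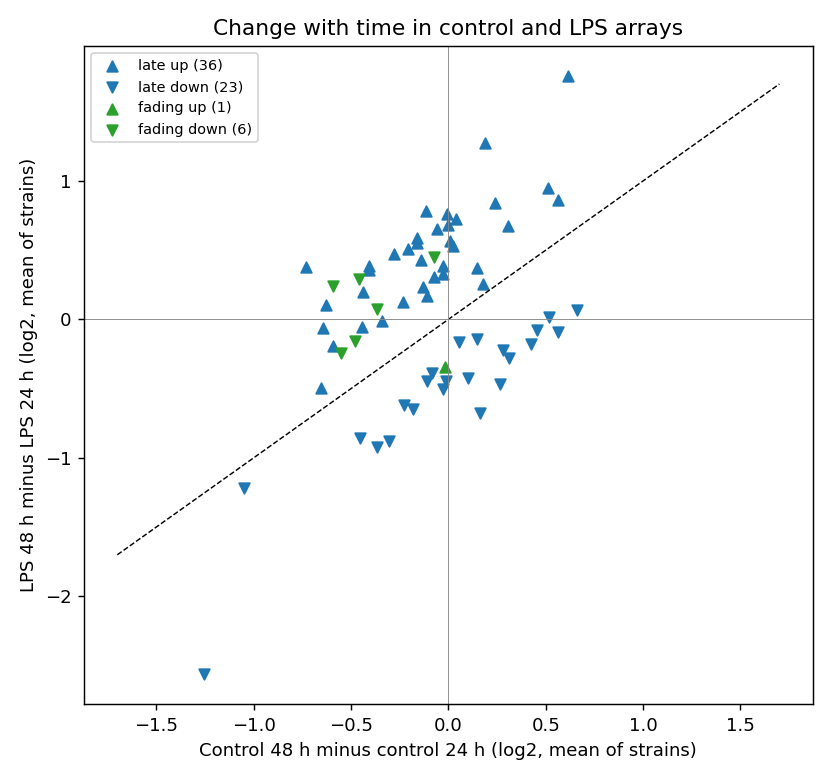
Change from 24 h to 48 h (log2, mean of the strains) in the control arrays on the x axis and in the LPS arrays on the y axis for late and fading probes, with a dashed line of equal change. Late and higher probes had a median of 0.41 with LPS and of -0.11 in the controls, and fading and lower probes had 0.16 with LPS and -0.47 in the controls.

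The LPS by time difference is made of a change with time in the LPS arrays and one in the controls, and the classes were unlike in that. Late and higher probes had a median of 0.41 from 24 h to 48 h in the LPS arrays, up in both strains for 30 of 36 and down in both for 2, and of -0.11 in the controls, down in both for 16 and up in both for 5. Late and lower probes had -0.44 with LPS, down in both strains for 18 of 23, and 0.06 in the controls. The fading and lower probes had 0.16 with LPS and -0.47 in the controls, where 4 of 6 were down in both strains. Over all kept probes the medians were 0.01 with LPS and 0.04 in the controls.

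Fading responses were few at this threshold, 7 in all, and their number rested on the scaling. A common median gave 28, all lower, neqc background correction gave 39, and quantile normalization gave 3 higher and 2 lower. Col1a1, the main chain of type I collagen, had controls of 8801 in LEW and 6905 in PVG at 24 h and LPS signals of 5589 and 4255. At 48 h its controls were at 5422 and 5933 and its LPS arrays at 4837 and 7369, and the groups overlapped. Its LPS change was -0.68 ± 0.22 at 24 h (adjusted p = 0.262) and 0.07 ± 0.22 at 48 h, a difference of 0.75 ± 0.31 (interval 0.05 to 1.45). Rasa1, a GTPase-activating protein of Ras, and Tgfb2, transforming growth factor beta 2, differed by 0.44 ± 0.26 and 0.33 ± 0.21. Of the 7 fading probes 1 passed for LPS at 24 h and 0 at 48 h, and among the higher ones RT1-CE7, a class I histocompatibility gene, stood alone with changes of 0.60 ± 0.11 and 0.27 ± 0.11 and a difference of -0.32 ± 0.16. This gene belongs to a family of near-identical copies, and its probe may not tell them apart.

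Other genes had LPS changes that turned from negative to positive without reaching the sorting threshold in both strains at either time. Postn, the matrix protein periostin, had controls of 1948 and 1187 and LPS signals of 1139 and 831 at 24 h, and controls of 1968 and 1486 and LPS signals of 2461 and 1568 at 48 h. LPS arrays were thus below their controls in both strains at 24 h and above them in both at 48 h, with a difference of 0.84 ± 0.17 (interval 0.47 to 1.22, adjusted p = 0.746). Fkbp10, a chaperone of collagen folding, gave -0.42 ± 0.10 and 0.25 ± 0.10 with a difference of 0.67 ± 0.14, and Tcp1, a subunit of the cytosolic chaperonin, -0.58 ± 0.10 and 0.13 ± 0.10 with a difference of 0.70 ± 0.15. None of these 3 passed for LPS at either time. Of 25 fibrillar collagens and matrix proteins, 0 passed at 24 h. At 48 h 6 of the 25 rose and 2 fell, against 1.53% and 0.826% of all kept probes. The LPS by time difference was positive in both strains for 16 of them (64%, against 27.4% of all genes), with a median of 0.22. At an unadjusted p under 0.05 in limma, 8 were higher and 0 lower at 48 h, against 3.21% and 1.84% of all kept probes.

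Going the other way, Dnph1, a nucleotide hydrolase, had LPS signals of 144 and 213 over controls of 111 and 144 at 24 h and of 97.5 and 135 against 126 and 155 at 48 h. It was above its controls in both strains at 24 h and below them in both at 48 h, and differed by -0.75 ± 0.16 without passing for LPS at either time. Neu1, the lysosomal sialidase, had the same shape with -0.68 ± 0.16. Of 29 interferon-stimulated genes, a usual arm of the endotoxin response in immune cells, 0 passed in limma at 24 h or 48 h, a count near the share called among all probes. Their difference was negative in both strains for 13 (44.8%, against 30.8% of all genes) and positive in both for 3 (10.3%, against 27.4%), with a median of -0.15. Of 23 immediate early and MYC genes, which respond to growth factors within the hour, 0 passed at 24 h. At 48 h 3 of the 23 fell, against 0.826% of all kept probes. Among the 3 was Egr1, a zinc finger factor, which fell by 1.01 ± 0.15, with a difference of -0.50 ± 0.21.

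**Figure D4:**
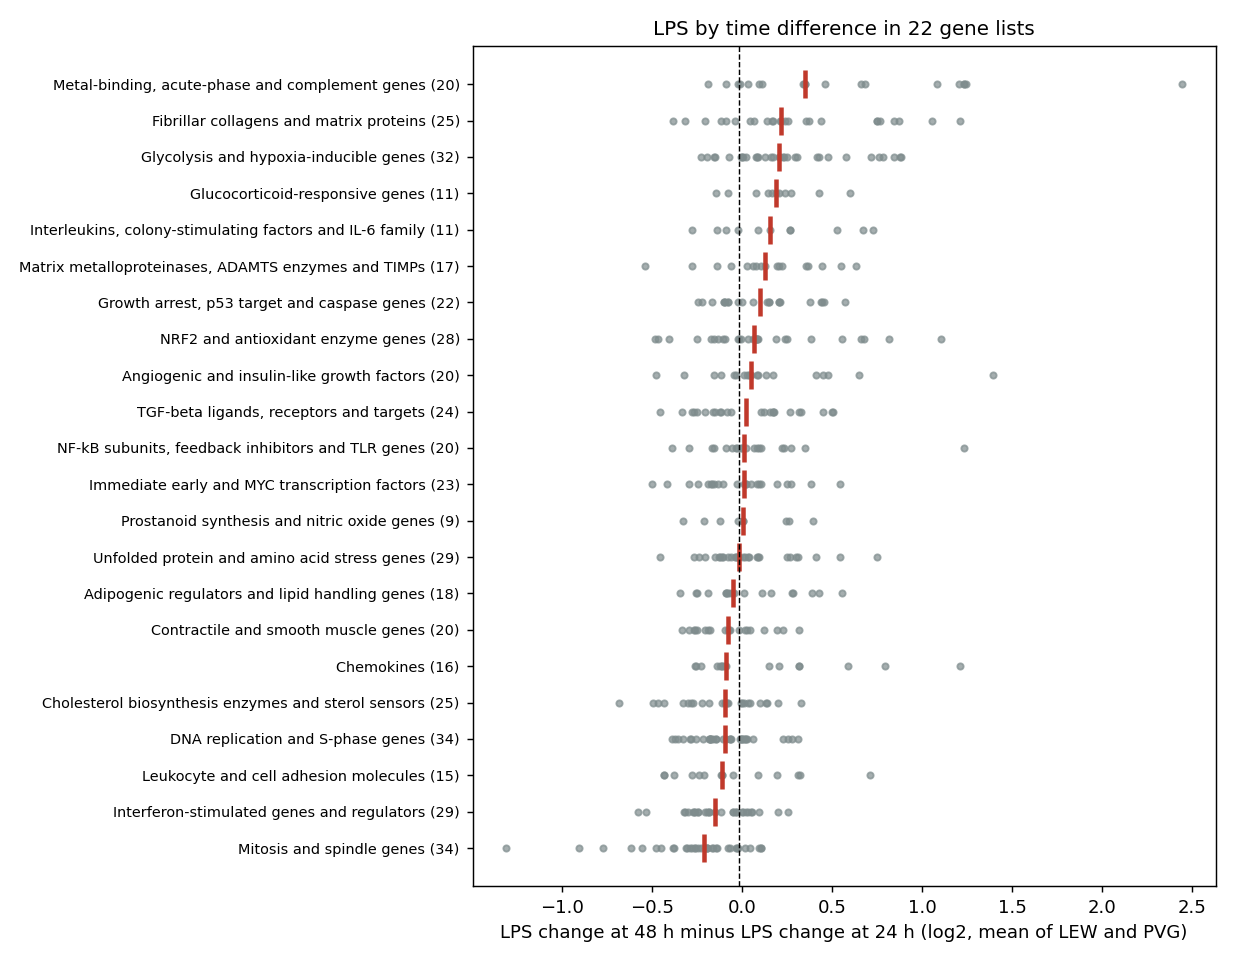
LPS by time difference (log2, x axis) of each gene in 22 pathway lists, with the list medians as red ticks and the median of all genes, -0.02, as a dashed line. The median was 0.35 for acute-phase, metal-binding and complement genes, 0.22 for matrix genes and 0.21 for glycolytic genes, and -0.21 for mitosis and -0.15 for interferon-stimulated genes.

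The arrays of 1 strain are independent of a sort made in the other, apart from any shared handling. Of 270 probes sorted as late and higher in LEW alone, 197 (73.0%) had a positive LPS by time difference in PVG, with a median of 0.21, while 46.5% of all kept probes were positive there. Of 109 sorted so in PVG alone, 89 (81.7%) were positive in LEW, with a median of 0.29, against 47.1% of all. The late and lower sort of LEW was followed by a negative difference in PVG for 158 of 268 (59.0%, median -0.05), near the 53.5% of all kept probes that were negative there. That of PVG was followed by a negative difference in LEW for 58 of 72 (80.6%, median -0.23), against 52.9% of all. Probes that faded from a lower level in LEW were positive in PVG for 67 of 104 (64.4%), and those of PVG were positive in LEW for 107 of 176 (60.8%). The fading and higher sort had the sign of its own strain least often, in 7 of 20 (35%) from LEW to PVG and in 36 of 68 (52.9%) from PVG to LEW. Sustained and higher probes of LEW were further up at 48 h in PVG for 107 of 152 (70.4%), and those of PVG in LEW for 89 of 111 (80.2%).

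Some of the largest LPS changes had a course in time that differed between the strains. Slpi, a secreted protease inhibitor, had LPS signals of 1001 in LEW and 164 in PVG at 24 h and of 6634 and 232 at 48 h, over controls of 184 and 67.0 and of 193 and 88.5. Its LPS by time difference was 2.66 in LEW and 0.10 in PVG, and it passed for LPS at neither time (adjusted p = 0.331 and 0.0532). Il1a, interleukin 1 alpha, was undetected in all 4 controls (54.7 to 67.9) and had LPS signals of 180 and 124 at 24 h and of 745 and 109 at 48 h. The late gain of both genes lay in LEW, and whether the strains differed in it was not tested, since each strain had 1 array per condition.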

How the data were processed

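Per the labels, the arrays were Illumina RatRef-12 BeadChips hybridised with biotinylated cRNA of pooled total RNA. The authors deposited signal intensities, bead summaries on a linear scale without background subtraction or normalization between arrays, and, beside each signal, a detection p-value against that array's negative controls. Intensities that the authors had quantile-normalized, a further deposited table, served as an alternative. The 75th percentile of every array was made equal, as the methods describe, and signals were floored at 16 and taken to log2. Probes with a detection p-value under 0.05 on at least 2 of 8 arrays were kept. Of 22523 probes, 13793 had 1 gene symbol and 8730 had none in the platform annotation. Where a list held a gene with several probes, the brightest was used.

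The main fit (limma 3.58.1, R 4.3.3) had the 4 groups of treatment and time and the strain as a block, with 3 residual degrees of freedom and p-values adjusted by Benjamini-Hochberg over all kept probes. The block was used because, per the labels, the cells of each rat were divided over the 4 conditions, so that the 4 arrays of a strain share their rats. The fit with strain terms also let strain alter the LPS and the time effect and left 1 residual degree of freedom. A fold is given as at least N-fold where neither array of the dimmer group was detected, and then uses the lowest detected signal of each array as the floor. The named genes were the 10 with the smallest p of the LPS by time difference in each direction, the 6 leading genes of each class and direction, up to 6 of each of 22 pathway lists, and 11 genes of the LPS pathway. Tnip1, Irak3, C1s, Hmox1, Tns1, Slpi, Adora2a, Wfdc18, Id2, Eno2, Kif23 and Gzmb and the other genes named as passing only with the strain terms were added after their values were seen. The classes, lists and marker sets were chosen with earlier results of these data known. The fit was tested on simulated data. Alternatives covered the scaling, the background correction, the detection filter, the fit, the fold of the classes and leaving out each array in turn. Python 3.11.15, with numpy 2.4.6 and pandas 2.3.3, and matplotlib 3.10.9 served for tables and plots. Precision was limited by the signal over background and by having 2 arrays per group, and no rat had an array of its own.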

Additional observations from a re-analysis of the deposited data

Results flagged for a closer look

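Mmp3, the gene of the matrix metalloproteinase stromelysin 1, had LPS by time differences of opposite direction in the strains, 0.85 in LEW and -0.72 in PVG (log2), each past 1.5-fold. Its LPS signals were 1406 in LEW and 135 in PVG at 24 h and 2387 and 100 at 48 h, over controls of 85.1 and 56.2 at 24 h and of 80.0 and 68.9 at 48 h. The PVG control was undetected at both times and the LEW control at 48 h, so the sizes are not exact. In PVG the LPS arrays changed by -0.43 from 24 h to 48 h and the controls, at background, by 0.29. The difference between the strains was not tested, since each strain had 1 array per condition. Of the 315 probes that were in a class or named, 2 had differences of opposite direction past 1.5-fold in the strains, as had 7 of all 10414 kept probes.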

How the results depend on the processing

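The LPS by time difference gave 0 probes after adjustment under every scaling and background correction and under every detection filter except none, which gave 1. It gave 27 with the strain terms, and 0 to 31 when 1 array was left out (2 without the LEW array and 31 without the PVG array of LPS 48 h, 8 of which were among the 27). A group then left with 1 array was taken to vary as the other groups did. At 24 h, 29 probes were called for LPS, against 8 after scaling to a common median and 49 with neqc. Probes detected on all 8 arrays gave 17, and no filter gave 151. The strain terms gave 566, an intensity trend 55 and the 2-way analysis of variance with the strain block 0 (1046 before adjustment). Leaving out 1 array gave 4 to 211, the lowest without the LEW control 24 h array and the highest without either LPS 48 h array, with 8, 15 and 8 without the PVG control, the LEW LPS and the PVG LPS array of 24 h. At 48 h, 245 were called, against 123 after scaling to a common median, 855 with the strain terms and 0 by the analysis of variance. Leaving out 1 array gave 60 to 506, with 60 and 86 without the LEW and the PVG control, and 131 and 506 without the LEW and the PVG LPS array, of 48 h. With no replicate block for the strain, 1 probe was called at 24 h and 2 at 48 h, and the LPS by time difference stayed at 0.

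Of the classes, the 7 fading probes became 28 after scaling to a common median, 4 in the authors' second table, 39 with neqc, 0 at a fold of 2 and 93 at a fold of 1.3. The 78 sustained, 59 late and 108 mixed probes became 146, 117 and 169 with neqc, 26, 21 and 25 at a fold of 2, and 194, 108 and 235 at a fold of 1.3. No class count could be had with an array left out, since the sort needs both strains at both times. Of 1769 values of named genes over all alternatives, 1661 kept their direction and side of the threshold, 47 passed it newly, 45 no longer passed and 16 turned in sign. Those 16 belonged to 4 values that were small in the main fit, 0.00 for Tnip1, -0.09 for Cxcl1, -0.17 for Nfkbia and 0.07 for Myd88. The turned values were not all small. The LPS by time difference of Tnip1 was -0.11 with quantile normalization and in the second table, -0.12 with neqc and -0.092 to 0.094 with 1 array left out. That of Cxcl1 was 0.024 after scaling to a common median, 0.068 with neqc, and -0.76 to 0.59 with 1 array left out, the highest without the PVG array of LPS 48 h. That of Nfkbia was -0.48 to 0.15, the highest without the PVG array of LPS 48 h, and the LPS change of Myd88 at 48 h was -0.19 to 0.33, the lowest without the PVG control 48 h array. The causes of these changes were not tested.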
